A study of Mus musculus with 32 samples.

Results

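The NRF2 targets and antioxidant enzymes described here are 10 genes, picked by name from the 45706 genes of the deposited table: Hmox1, Nqo1, Gclm, Gclc, Txnrd1, Srxn1, Slc7a11, Gpx1, Sod1 and Sod2. Their RNA was read from 32 libraries made of the mouse microglial line BV-2, which is immortalised and carries the labelled genotype WT. To ask how microRNAs shape the response of microglia, cells were given a mimic (a synthetic RNA duplex loaded in place of the natural microRNA) of miR-146a-5p, miR-29a-3p or miR-7a-5p, or a scramble mimic as negative control. Each of these was combined with vehicle (VEH) or with lipopolysaccharide (LPS, a bacterial cell wall component) at 10 ng/ml for 24 h. This gave 8 groups of 4 libraries, here named VEH_scramble, VEH_miR-7a, VEH_miR-29a, VEH_miR-146a, LPS_scramble, LPS_miR-7a, LPS_miR-29a and LPS_miR-146a. All groups were transfected, so none shows untouched cells. The labels place LPS before transfection and the methods describe transfection first, and the order cannot be told apart from these data. The methods call the 4 replicates independent experiments of 1 cell line.

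NRF2 (the product of Nfe2l2) is a transcription factor that KEAP1 holds at a low level by marking it for degradation. Oxidants and electrophiles disable KEAP1, and NRF2 then enters the nucleus, pairs with a small MAF protein and binds antioxidant response elements near its target genes, where BACH1 competes with it. The targets make and recycle glutathione and thioredoxin, detoxify quinones and break down haem. Superoxide dismutases and glutathione peroxidases remove superoxide and peroxides, and Sod2 is also known as a gene induced by inflammatory signalling in macrophages.

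The library totals ran from 1130572 to 9407434 restored counts under vehicle and from 2679786 to 20254452 under LPS, so that 3 counts correspond to between 0.148 and 2.65 CPM, the count scaled to a library of fixed size. Small structural RNA genes held 3.75% to 37.4% of the counts in the 16 vehicle libraries and 2.62% to 5.89% in the 16 LPS libraries. The share reached 33.9% to 37.4% in VEH_miR-7a replicates 2 to 4. Scaling the libraries without these genes changed no call of any member, while what else goes with a high share was not tested. The labels give the cell type as Glioblastoma, but the 12 microglia and macrophage markers summed to between 1838 and 4300 CPM in every library. Among these, Csf1r, Cx3cr1 and Adgre1 were too low to test, at medians of 0.650, 0.621 and 0.794 CPM. Astrocyte, neuron and endothelium markers summed to at most 1.38, 3.06 and 3.58 CPM, and oligodendrocyte markers to between 2.48 and 18.1 CPM.

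The mature sequences of the transfected microRNAs are shown first, because the seed in capitals (bases 2 to 8 from the 5′ end) is what a mimic uses to find a target. They come from RefSeq on GRCm38. miR-7a-5p lies at chr13:58392841-58392863 on the minus strand in Mir7-1, 1 of 2 genes that encode it. miR-29a-3p lies at chr6:31062673-31062694 and miR-146a-5p at chr11:43374435-43374456, both on the minus strand. The 3 seeds differ from each other.
miR-7a-5p: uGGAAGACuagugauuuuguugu
miR-29a-3p: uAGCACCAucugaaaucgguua
miR-146a-5p: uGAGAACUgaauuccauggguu

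A seed match was counted in the longest annotated 3′ UTR of each gene (GENCODE M21) as the complement of bases 2 to 8, or of bases 2 to 7 followed by A. The letters searched on the transcript strand were GTCTTCC and TCTTCCA for miR-7a, TGGTGCT and GGTGCTA for miR-29a, and AGTTCTC and GTTCTCA for miR-146a. Of 11155 expressed genes with a 3′ UTR, 25.8% held a match for miR-7a, 19.2% for miR-29a and 20.5% for miR-146a. Hmox1, Nqo1 and Sod1 held no match for any of the mimics. Gclm held 2 matches for miR-7a and 1 for miR-146a, Gclc held 1 for each of these, and Gpx1 held 1 for miR-7a. Txnrd1 held 1 for miR-146a, Srxn1 held 1 each for miR-29a and miR-146a, and Slc7a11 held 1 each for miR-7a and miR-29a. Sod2 held 2 matches for miR-146a, more than any other of these genes held for that mimic. Sites are printed 5′ to 3′ with the match in capitals. They are those of genes called against scramble under LPS with the matching mimic, with the replicate number as a block. By limma without the block none of these genes was called (adjusted p = 0.193 for Sod2, 0.239 for Gclc, 0.0645 for Srxn1 and 0.128 for Gpx1). Of these, Sod2 and Gclc fell with miR-146a, while Srxn1 rose with miR-29a and Gpx1 rose with miR-7a. They lie at chr17:13015561-13015587 and chr17:13018688-13018714 (Sod2), chr9:77794395-77794421 (Gclc), chr2:152111146-152111172 (Srxn1) and chr9:108340178-108340204 (Gpx1), all on the plus strand of GRCm38.
Sod2, first miR-146a match: agaaccaaatAGTTCTCttttctatta
Sod2, second miR-146a match: tgcaggaagcAGTTCTCctttgatcat
Gclc, miR-146a match: ttttttctacAGTTCTCttatgtaaat
Srxn1, miR-29a match: agatgcatcgTGGTGCTggattgattc
Gpx1, miR-7a match: ggggggcggtTCTTCCAtgatggtgtt

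The core of the antioxidant response element, TGACNNNGC, was searched on both strands of the RefSeq promoter windows (250 bases before to 50 bases after each transcription start, GRCm38). It was present in 12.4% of all 32851 windows. Of the 8 members with a window, Gclm, Txnrd1, Srxn1 and Sod1 held it, each on the strand opposite to the gene, while no match was found in the windows of Nqo1, Slc7a11, Gpx1 and Sod2. Txnrd1 had 3 windows and the others 1 each, and 4 of these 10 windows held the core. No window was at hand for Hmox1 and Gclc. The matches are printed on the minus strand with the core in capitals, because NRF2 binds DNA of this form. They lie at chr3:122245414-122245440 (Gclm), chr10:82859105-82859131 (Txnrd1), chr2:152105543-152105569 (Srxn1) and chr16:90220697-90220723 (Sod1).
Gclm: cgtgagagtTGACGGTGCgcccgggag
Txnrd1: gtgtcagaaTGACAAAGCaaaaatcca
Srxn1: gtctcactcTGACCTAGCtgcccactg
Sod1: gcctgagtcTGACCACGCccaccttgg

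Levels between genes were compared as CPM per kb of exon. In VEH_scramble cells Hmox1, which encodes the inducible haem oxygenase, was the most abundant at 243 ± 42.1 CPM per kb (SD, n = 4 here and below). Sod1, the cytosolic superoxide dismutase, followed at 233 ± 107, and Gpx1, a selenoenzyme that reduces peroxides with glutathione, at 114 ± 17.9 CPM per kb. The libraries of Hmox1 overlapped with those of Sod1, and the latter with those of Gpx1. A gap then separated Gpx1 from Srxn1 (15.6 ± 3.10), Gclc (12.9 ± 2.54), Txnrd1 (11 ± 2.26) and Sod2 (10.6 ± 2.02 CPM per kb), which overlapped in turn. Gclm at 4.28 ± 0.478 and Slc7a11 at 2.06 ± 0.365 CPM per kb lay below these with no overlap between neighbours.

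**Figure D1:**
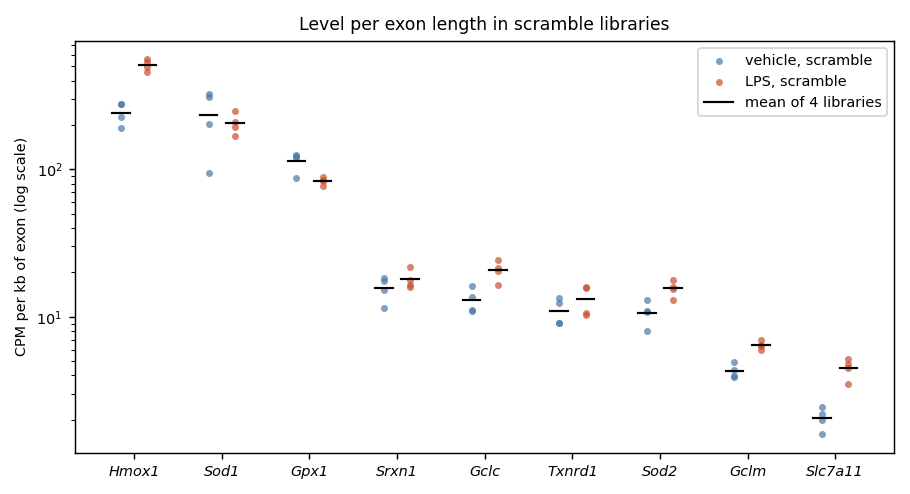
Level of 9 members per kb of exon in the 4 VEH_scramble (blue) and 4 LPS_scramble (orange) libraries, on a log axis, with black lines for the group means. Hmox1 moves from 243 to 512 CPM per kb, while Slc7a11 remains the lowest of the genes drawn in both groups.

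Nqo1 (chromosome 8, 107388225 to 107403206, minus strand), the quinone reductase often used as a read-out of NRF2, was close to undetectable in this line. It was at 0 in 20 of 32 libraries, VEH_scramble among them with 0 counts in all 4, and no library held more than 6 counts. Its highest level was 0.831 CPM, in VEH_miR-7a replicate 2. It failed the filter on low counts in each comparison, so 9 of the 10 genes were tested. A difference in Nqo1 was not detectable at this depth.

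Cells with the scramble mimic showed how LPS acted on these genes without an active mimic. Hmox1, the cystine transporter gene Slc7a11, both subunits of the enzyme that starts glutathione synthesis and Sod2 rose, whereas Txnrd1, Srxn1, Gpx1 and Sod1 did not pass the test. In bulk RNA, a change in the level per cell and a change in the mix of cells cannot be told apart. Of the 9 genes tested by limma-voom, 5 rose and 0 fell at an adjusted p under 0.05, where 9.34% of all 12302 genes tested rose and 8.21% fell. The median log2 fold change of the 9 was 0.57, against 0.01 over all genes tested.

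Hmox1 (chromosome 8, 75093621 to 75100589, plus strand, 5 exons) stood at 299, 433, 355 and 436 CPM in VEH_scramble replicates 1 to 4. It stood at 719, 874, 777 and 846 CPM in LPS_scramble. The lowest LPS library was above the highest vehicle library. Over all 12319 genes with a full set of certain values, 22.5% did not overlap between these groups, against 4 of the 9 members. The log2 fold change was 1.10 ± 0.16 (SE), a 2.14-fold rise (adjusted p = 0.000978), and the gene was called in all 8 fits that left out 1 library.

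Slc7a11 (chromosome 3, 49892526 to 50443614, minus strand) encodes the cystine transporter subunit xCT, which supplies the cysteine for glutathione. Its long locus also holds the pseudogenes Gm37692, Gm37826 and Gm2345, so some reads could belong to these. Its 4 vehicle libraries held 19.5, 15.8, 21.7 and 24.3 CPM, and its 4 LPS libraries held 47.1, 34.6, 50.8 and 44.3 CPM. These did not overlap, and the log2 fold change was likewise 1.10 (SE 0.19, adjusted p = 0.00258). Gclc (chromosome 9, 77754535 to 77794485, plus strand) and Gclm (chromosome 3, 122245557 to 122270732, plus strand) encode the catalytic and modifier subunits of glutamate-cysteine ligase, the first step of glutathione synthesis. Gclc moved from 44.3 ± 8.69 to 70.7 ± 10.8 CPM (log2 fold change 0.67, SE 0.18, adjusted p = 0.0247). Gclm moved from 25.3 ± 2.82 to 37.9 ± 2.33 CPM (log2 fold change 0.60, SE 0.14, adjusted p = 0.0154). Neither subunit overlapped between the groups. Gclm overlaps the pseudogene Gm6061 on its strand and Gm17494 on the other, and 31 of its 32 deposited values were fractional. Whether reads were shared between these genes was not tested, and its level is uncertain.

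Sod2 (chromosome 17, 13006846 to 13040063, plus strand), the mitochondrial superoxide dismutase, stood at 65.0, 47.9, 77.4 and 64.0 CPM under vehicle and at 95.9, 77.3, 107 and 92.6 CPM under LPS. The groups touched, since LPS replicate 2 lay just below vehicle replicate 3, yet LPS was higher within each replicate number. The log2 fold change was 0.57 (SE 0.17, adjusted p = 0.0413). This was the weakest of the calls: Sod2 passed in 2 of 8 fits with 1 library left out (without VEH_scramble replicate 3 or LPS_scramble replicate 2), Gclc in 3 of 8 (without VEH_scramble replicate 1 or 2 or LPS_scramble replicate 3), and Gclm in all but that without VEH_scramble replicate 4 (adjusted p = 0.0621). Without LPS_scramble replicate 4, the deepest library, 3 of the 9 rose.

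Gpx1 (chromosome 9, 108338903 to 108340343, plus strand) pointed the other way, at 94.3, 133, 128 and 135 CPM under vehicle and 89.1, 82.2, 95.1 and 90.4 CPM under LPS. The groups overlapped through vehicle replicate 1, and the log2 difference of -0.43 (95% interval -0.76 to -0.10) missed the threshold (adjusted p = 0.0703). Same-numbered libraries of these groups deviated together, and with the replicate number as a block Gpx1 fell (log2 fold change -0.44, adjusted p = 0.0421), so that 5 rose and 1 fell where 12.4% of all genes rose and 12.1% fell. For the other 8 genes the block changed no call. Txnrd1, thioredoxin reductase 1, differed by 0.25 on the log2 scale (95% interval -0.20 to 0.70), Srxn1, the sulfiredoxin that repairs oxidised peroxiredoxins, by 0.23 (-0.16 to 0.61), and Sod1 by -0.03 (-0.76 to 0.69). These intervals do not show that the 3 genes stayed level, and that of Sod1 is wide because its vehicle libraries ran from 60.4 to 208 CPM. Sod1 (chromosome 16, 90220754 to 90226329) overlaps Scaf4 on the other strand, and 31 of its 32 values were fractional, and its level is likewise uncertain.

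**Figure D2:**
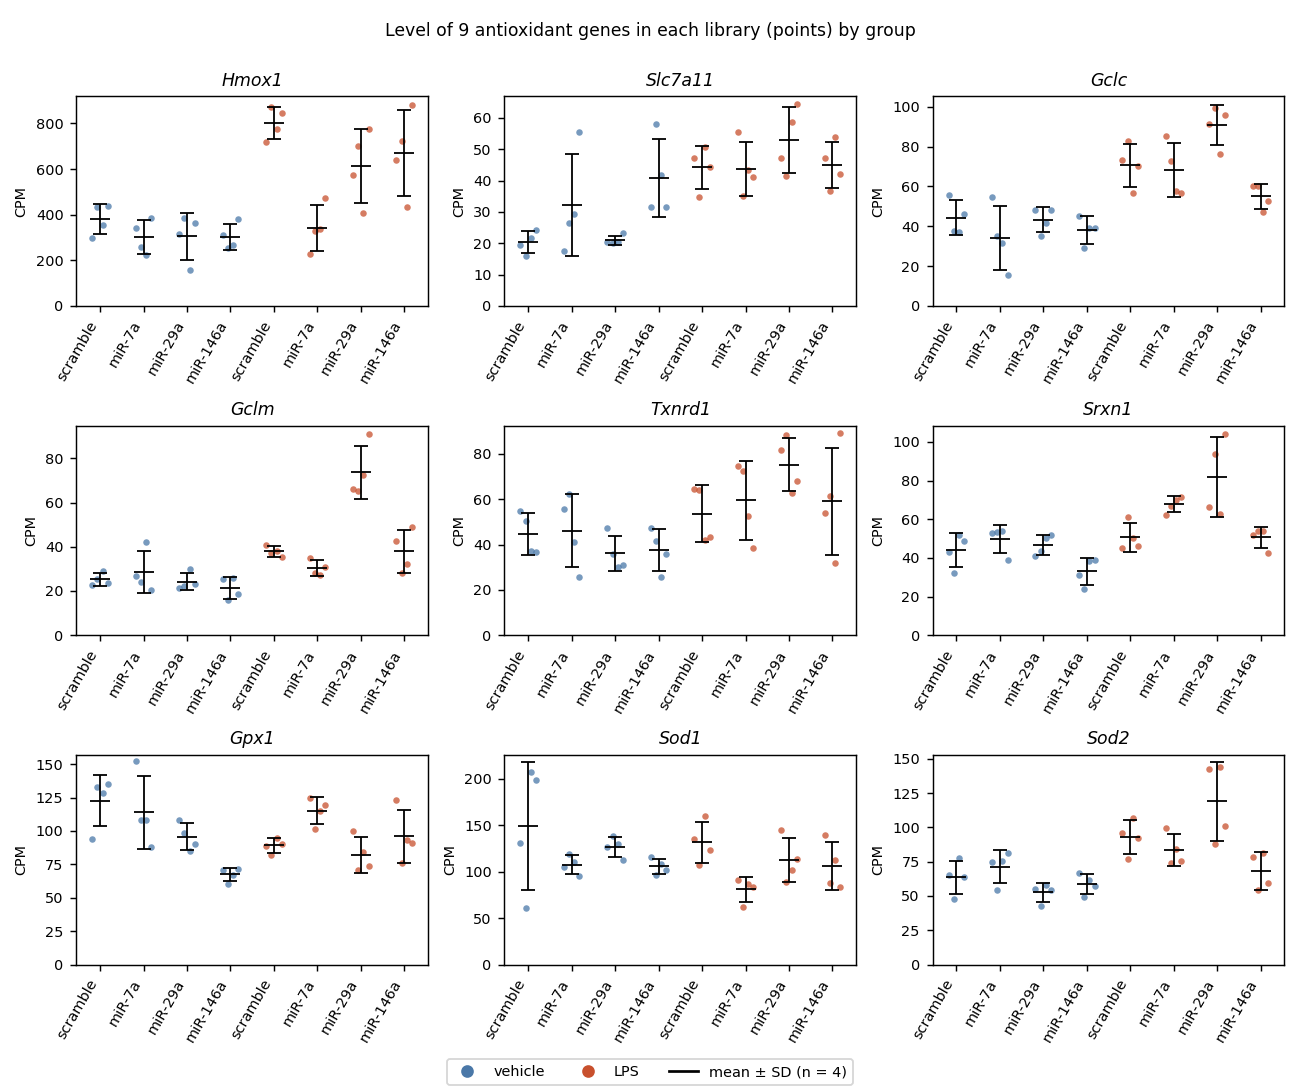
CPM of 9 members in each of the 32 libraries (points, replicates 1 to 4 from left to right) with the mean ± SD of each group of 4, vehicle in blue and LPS in orange. The LPS_scramble libraries of Hmox1 sit between 719 and 874 CPM, above all other Hmox1 groups except parts of LPS_miR-29a and LPS_miR-146a, and Gclm peaks in LPS_miR-29a between 65.4 and 91.0 CPM.

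The microglia and macrophage markers also differed between these groups, summing to between 2661 and 4300 CPM in VEH_scramble and between 2177 and 2968 CPM in LPS_scramble. Trem2 fell by 1.37 and Spi1 by 0.74 on the log2 scale, and Itgam rose by 0.54. Trem2 also fell under LPS with miR-7a, miR-29a and miR-146a, by 1.00, 1.70 and 0.88. Other markers went different ways, since Itgam and Spi1 fell with miR-29a (-0.38 and -0.83) and Tmem119 rose with miR-7a (2.50, from 0.994 to 6.07 CPM on average). The sums under vehicle and LPS did not overlap with miR-29a (2704 to 3247 against 1838 to 2632 CPM) but did with miR-7a (2650 to 3537 against 2325 to 3456 CPM) and miR-146a (2744 to 3878 against 2530 to 3145 CPM). No marker was called between a mimic and scramble. The part of this shift in the LPS results was not tested.

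The same LPS comparison was made in cells with each active mimic, where it asked whether the response was seen with that mimic too. With miR-29a, 7 of 9 genes rose and 0 fell, where 12.6% of 12193 genes rose and 13.7% fell. The median log2 fold change was 1.04 for the 9 genes and -0.02 over all genes tested. The 7 were Gclm, Gclc, Slc7a11, Hmox1, Txnrd1, Srxn1 and Sod2. All 7 genes that rose did not overlap between the groups (27.2% of 12319 genes did not), and each was called in all 8 fits with 1 library left out.

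Gclm showed the largest change of the 9, from 21.4, 22.3, 30.1 and 23.1 CPM in VEH_miR-29a to 65.9, 65.4, 72.5 and 91.0 CPM in LPS_miR-29a. This was a log2 fold change of 1.57 (SE 0.18, adjusted p = 0.00011), or 2.96-fold. Its partner Gclc went from 43.3 ± 6.27 to 90.9 ± 10.1 CPM, a log2 fold change of 1.03 (SE 0.15, adjusted p = 0.000521). Slc7a11 held between 20 and 23.1 CPM in the 4 vehicle libraries and 47.2, 41.3, 58.8 and 64.4 CPM under LPS, a log2 fold change of 1.27 (SE 0.19, adjusted p = 0.000696). Under LPS all 3 of these genes were above their vehicle range in every library.

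Txnrd1 (chromosome 10, 82833951 to 82897712, plus strand) keeps thioredoxin reduced with NADPH. It held 47.3, 35.7, 30.2 and 30.9 CPM in VEH_miR-29a and 81.7, 88.3, 62.9 and 68.1 CPM in LPS_miR-29a, a log2 fold change of 1.08 (SE 0.17, adjusted p = 0.00107). Eid3 on its strand and Gm38560 and Gm47073 on the other overlap it in part, and 0 of its 32 values were fractional. Srxn1 (chromosome 2, 152105516 to 152111376, plus strand) held 41.1, 43.6, 50.5 and 52.0 CPM under vehicle and 66.1, 93.8, 62.5 and 104 CPM under LPS, a log2 fold change of 0.73 (SE 0.19, adjusted p = 0.014). Every LPS library was above every vehicle library for both genes. Sod2 rose by 1.11 (SE 0.19, adjusted p = 0.00158), from 52.5 ± 6.76 to 119 ± 28.5 CPM. Hmox1 rose by 1.04 (SE 0.28, adjusted p = 0.0175), from 305 ± 102 to 613 ± 161 CPM, with VEH_miR-29a replicate 3 (158 CPM) and LPS_miR-29a replicate 3 (406 CPM) the lowest of their groups. Gpx1 differed by -0.25 (95% interval -0.57 to 0.08) and Sod1 by -0.21 (-0.56 to 0.14).

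With miR-146a, Hmox1 rose and no other member passed the test, so 1 of 9 rose and 0 fell where 2.82% of 12092 genes rose and 1.55% fell. Hmox1 held 312, 254, 266 and 381 CPM in VEH_miR-146a and 639, 724, 432 and 882 CPM in LPS_miR-146a. The groups did not overlap, and the log2 fold change was 1.12 (SE 0.21, adjusted p = 0.00692), called in all 8 fits with 1 library left out. All 9 log2 differences were above 0, with a median of 0.58 against -0.02 over all genes. Gclm, Gclc, Srxn1 and Gpx1 also did not overlap between these groups (11% of 12319 genes did not) but missed the threshold, with log2 differences of 0.79, 0.58, 0.63 and 0.50 (adjusted p = 0.0769, 0.0648, 0.0679 and 0.112). DESeq2 called 4 members here, Gclm, Gclc and Srxn1 besides Hmox1, and 810 of all 12092 genes. Slc7a11 differed by only 0.13 (95% interval -0.31 to 0.57), and its VEH_miR-146a libraries already held 31.7, 58.2, 41.9 and 31.6 CPM.

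With miR-7a, 0 of 9 members were called by limma, where 6.61% of 11869 genes were. At an unadjusted p under 0.05 the number was 4 of 9, edgeR's quasi-likelihood test called 0, and DESeq2 called 1, Gclc. Over all 11869 genes these counts were 2416, 913 and 1283. Hmox1 held 341, 257, 222 and 383 CPM in VEH_miR-7a and 228, 329, 337 and 474 CPM in LPS_miR-7a. These ranges overlapped except for LPS replicate 4, which lay above every vehicle library, and the log2 difference was 0.14 (95% interval -0.35 to 0.64, adjusted p = 0.791). Gclc held 54.5, 34.9, 31.8 and 15.5 CPM under vehicle and 85.5, 72.6, 57.8 and 56.7 CPM under LPS, with no overlap (13.5% of 12319 genes did not overlap, and 3 of the 9 members did not) and a log2 difference of 0.76 (95% interval 0.17 to 1.36, adjusted p = 0.131). It was called when VEH_miR-7a replicate 1, the library with little structural RNA, was left out (log2 fold change 1.21, adjusted p = 0.0427). Slc7a11 differed by 0.78 (0.17 to 1.39), Srxn1 by 0.37 (0.03 to 0.71) and Sod1 by -0.47 (-0.83 to -0.11), none past the threshold. VEH_miR-7a holds the shallowest library of the series. The SE was larger than with miR-29a for Gclc (0.27 against 0.15), Slc7a11, Txnrd1, Gclm, Gpx1 and Sod1. It was smaller for Hmox1 (0.23 against 0.28), Sod2 and Srxn1. Whether depth bears on these calls was not tested, and a missing call does not show that a gene stayed level.

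**Figure D3:**
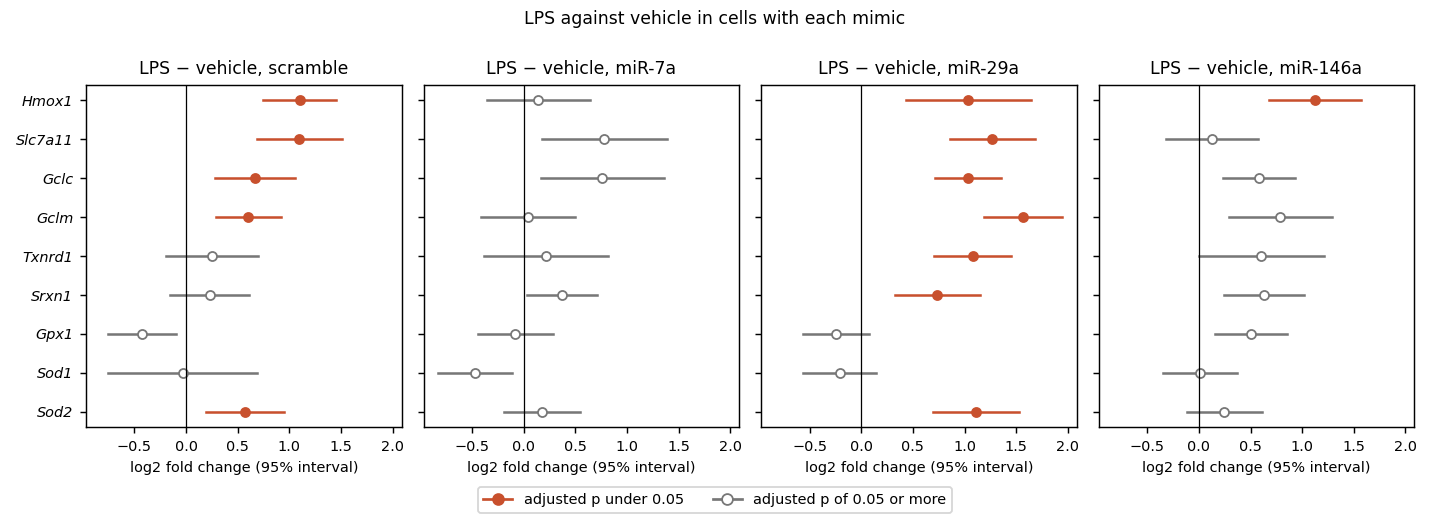
Log2 fold change of LPS against vehicle for 9 members in cells with each mimic, with 95% intervals from limma, filled orange where the adjusted p was under 0.05. The filled points number 5 for scramble, 7 for miR-29a, 1 for miR-146a and 0 for miR-7a, and the Hmox1 estimate is 0.14 with miR-7a and between 1.04 and 1.12 with the other mimics.

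The mimics were then compared with scramble under LPS, to ask how each changed these genes in activated cells. These 3 comparisons share the 4 LPS_scramble libraries and are not independent of each other. Same-numbered libraries deviated together in all of them, so values with the replicate number as a block are given where they change a call.

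With miR-7a, Hmox1 and Sod1 fell and 0 of 9 rose, where 1.03% of 13004 genes fell and 1.55% rose. Hmox1 held 228, 329, 337 and 474 CPM in LPS_miR-7a, all below the 719 to 874 CPM of LPS_scramble. The log2 fold change was -1.28 (SE 0.19, adjusted p = 0.00867), that is 2.43-fold lower, and it was called in all 8 fits with 1 library left out. Hmox1 carries no seed match for miR-7a in its 3′ UTR. LPS_miR-7a was close to VEH_scramble in Hmox1, at 342 ± 101 against 381 ± 66.0 CPM, but that pair was not tested.

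Sod1 held 90.9, 61.6, 87.0 and 83.7 CPM in LPS_miR-7a and 135, 108, 160 and 124 CPM in LPS_scramble. The groups did not overlap (11.2% of 12319 genes did not), and the log2 fold change was -0.71 (SE 0.16, adjusted p = 0.0469). This call was held in 1 of 8 fits with 1 library left out (without LPS_scramble replicate 2), and with the block its adjusted p was 0.00101. With the block Gpx1 and Srxn1 rose (log2 fold changes of 0.35 and 0.42, adjusted p = 0.0342 and 0.0495), so 2 of 9 rose and 2 fell where 4.22% of all genes rose and 4.56% fell. Both stood in separate ranges, Gpx1 at 101 to 125 CPM against 82.2 to 95.1, and Srxn1 at 62.3 to 71.6 CPM against 44.9 to 61.1. Gclm differed by -0.33 (95% interval -0.60 to -0.05, adjusted p = 0.211) and the other 4 genes by between -0.17 and 0.15.

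With miR-29a, Gclm rose and 0 of 9 fell, where 2.03% of 13222 genes rose and 2.8% fell. Gclm held 41.0, 37.2, 38 and 35.4 CPM in LPS_scramble and 65.9, 65.4, 72.5 and 91.0 CPM in LPS_miR-29a. The log2 fold change was 0.95 (SE 0.13, adjusted p = 0.00558), a 1.94-fold rise called in all 8 fits with 1 library left out. Its 3′ UTR of 4335 bases holds no miR-29a seed match. Srxn1, whose 3′ UTR does hold one, was higher with the mimic in every library (62.5 to 104 against 44.9 to 61.1 CPM), with a log2 difference of 0.64 (adjusted p = 0.0645). These were the 2 members that did not overlap, where 12.7% of 12319 genes did not.

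With the block 4 of 9 genes rose and 1 fell in this comparison, where 3.93% of all genes rose and 5.9% fell. Srxn1 (0.67, adjusted p = 0.0162), Txnrd1 (0.51, adjusted p = 0.00966) and Gclc (0.36, adjusted p = 0.0396) rose along with Gclm (0.97, adjusted p = 0.000911). Hmox1 fell (-0.44, adjusted p = 0.0315), from 804 ± 70 to 613 ± 161 CPM, with overlapping groups. Sod2 and Slc7a11 were above scramble within each of the 4 replicate numbers but differed by 0.32 (95% interval -0.08 to 0.72) and 0.25 (-0.14 to 0.64).

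With miR-146a, 0 of 9 members were called under LPS by limma, where 2.4% of 12634 genes were. The count was 2 at an unadjusted p under 0.05, and 0 with edgeR's quasi-likelihood test and with DESeq2. Over all 12634 genes these counts were 2202, 165 and 665. Of the 9 members 0 did not overlap (10.7% of 12319 genes did not). With the block Sod2 and Gclc fell and 0 rose, where 5.83% of all genes fell and 4.79% rose. Sod2 held 78.5, 54.0, 81.1 and 59.2 CPM with miR-146a and 95.9, 77.3, 107 and 92.6 CPM with scramble, lower within each replicate number though the ranges overlapped (-0.46, adjusted p = 0.0119). Gclc held 60.1, 60.1, 47.1 and 52.9 CPM against 73.1, 82.9, 56.6 and 70.2 CPM (-0.36, adjusted p = 0.0327). Both genes hold miR-146a seed matches, as do Gclm, Txnrd1 and Srxn1, which differed by -0.06, 0.05 and 0.01.

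Under vehicle the same comparisons asked what each mimic did in cells without LPS. These 3 comparisons share the 4 VEH_scramble libraries. With miR-7a, 0 of 9 members were called (0.0541% of 11090 genes were), and with miR-29a also 0 of 9 (0.00857% of 11670 genes were). For both mimics the count was 0 at an unadjusted p under 0.05, with edgeR's quasi-likelihood test and with DESeq2, and 0 of 9 did not overlap, where 7.21% and 5.89% of 12319 genes did not. Over all genes 1396 and 1204 were under that p, edgeR called 19 and 0, and DESeq2 called 259 and 85. Hmox1 differed by -0.34 (95% interval -0.79 to 0.11) with miR-7a and by -0.38 (-0.95 to 0.19) with miR-29a. Gclm, the gene that rose with miR-29a under LPS, differed by -0.04 (-0.43 to 0.35) with miR-29a under vehicle.

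With miR-146a under vehicle, Gpx1 fell and 0 of 9 rose, where 1.14% of 11797 genes fell and 0.822% rose. Gpx1 held 70.8, 60.4, 67.1 and 71.5 CPM in VEH_miR-146a, all below the 94.3 to 135 CPM of VEH_scramble. The log2 fold change was -0.86 (SE 0.16, adjusted p = 0.0337), that is 1.81-fold lower, but the call was kept in 1 of 8 fits with 1 library left out (without VEH_scramble replicate 1), with adjusted p between 0.0552 and 0.119 in the others. Slc7a11 was higher in every VEH_miR-146a library (31.6 to 58.2 against 15.8 to 24.3 CPM), with a log2 difference of 0.98 (95% interval 0.47 to 1.49) that missed the threshold by limma (adjusted p = 0.0534) and passed it by edgeR's quasi-likelihood test (adjusted p = 0.0461) and DESeq2 (adjusted p = 0.00344). The remaining 7 differed by between -0.42 and -0.14, and 15% of 12319 genes did not overlap between these groups.

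**Figure D4:**
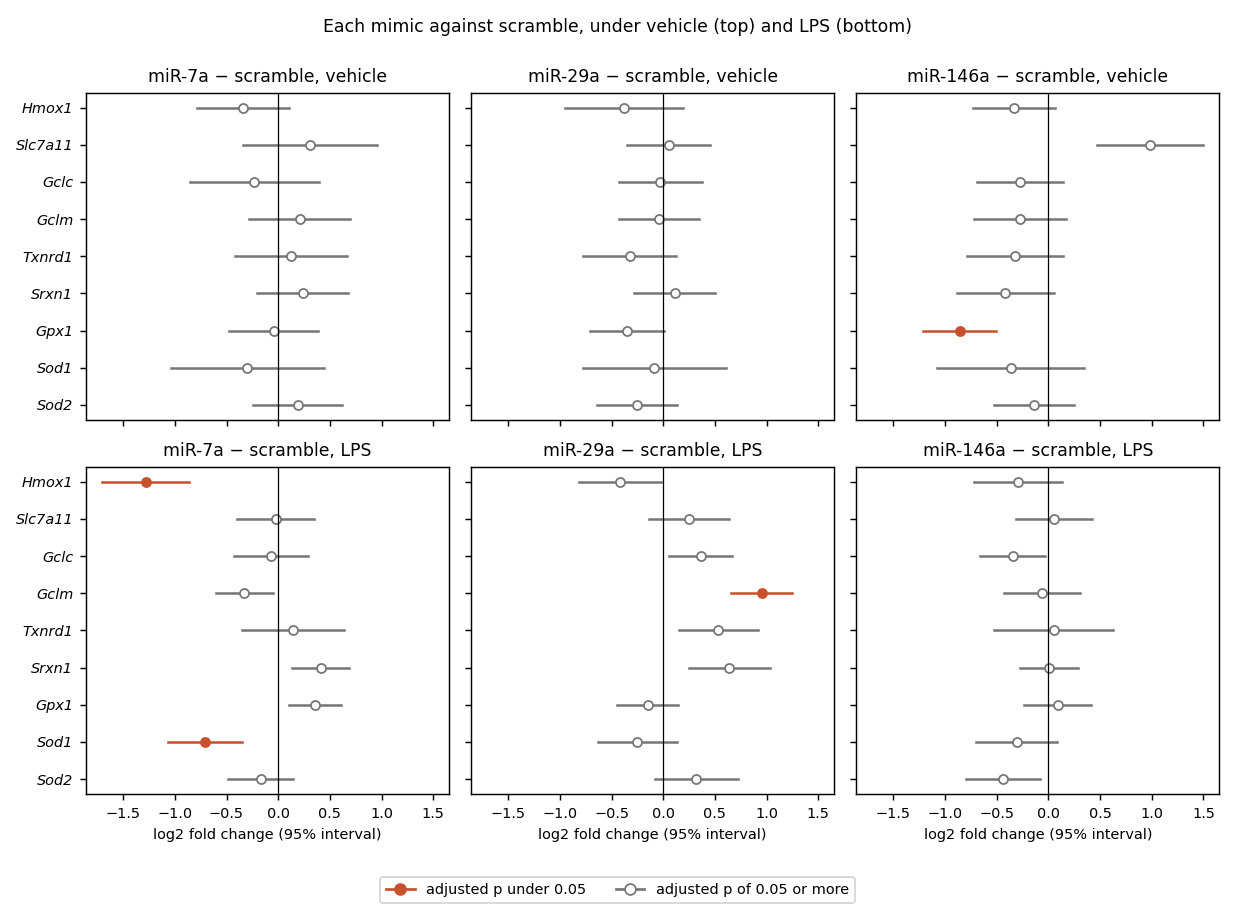
Log2 fold change of each mimic against scramble under vehicle (top) and LPS (bottom) for 9 members, with 95% intervals from limma, filled orange where the adjusted p was under 0.05. The filled points are Gpx1 with miR-146a under vehicle (-0.86) and, under LPS, Hmox1 (-1.28) and Sod1 (-0.71) with miR-7a and Gclm (0.95) with miR-29a.

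Whether a mimic acted differently under LPS and under vehicle was tested as an interaction over the 16 libraries of each mimic and scramble. By limma 0 of 9 members were called for any of the mimics, where 0.0164%, 0.0162% and 0% of 12209, 12341 and 12383 genes were called for the miR-7a, the miR-29a and the miR-146a mimic. At an unadjusted p under 0.05 the member counts were 2, 3 and 2, with edgeR's quasi-likelihood test 0 for each, and with DESeq2 0, 1 and 1. Over all genes 662, 807 and 1371 were at an unadjusted p under 0.05 in the order miR-7a, miR-29a and miR-146a. By edgeR 2, 2 and 0 of all genes were called, and by DESeq2 81, 23 and 20. The Hmox1 interaction with miR-7a was -0.95 on the log2 scale (95% interval -1.55 to -0.34, adjusted p = 0.533). For miR-29a, the Gclm interaction was 0.98 (0.53 to 1.42, adjusted p = 0.251) and was the member called by DESeq2 (adjusted p = 0.0152). For miR-146a, the Slc7a11 interaction was -0.95 (-1.56 to -0.33) and that of Gpx1 0.93 (0.48 to 1.38), the latter called by DESeq2 (adjusted p = 0.0454). With the replicate number as a block, limma called the Txnrd1 interaction with miR-29a (0.79, adjusted p = 0.0453). Without the block, limma shows no member's mimic effect to differ between LPS and vehicle.

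The wider pathway was read from 52 other genes in 7 lists by role. Under LPS with scramble, 10 of 47 tested were called, 5 higher and 5 lower (median log2 fold change -0.03), a share close to the 9.34% of all genes that rose and the 8.21% that fell. The single genes that rose were Fth1, the ferritin heavy chain, from 3463 ± 309 to 6937 ± 1336 CPM, Gsr, the glutathione reductase, from 12.8 ± 2.02 to 35.3 ± 7.11 CPM, and G6pdx and Me1, which make NADPH, by 0.63 and 0.86 on the log2 scale. In their lists 2 of 6 genes of NADPH supply, 1 of 5 of glutathione and 1 of 6 of haem and iron rose, and the ferritin light chain Ftl1 differed by -0.60 (adjusted p = 0.289). With the replicate number as a block Ftl1 and the mitochondrial thioredoxin reductase gene Txnrd2 fell (-0.55 and -0.72, adjusted p = 0.0318 and 0.0363) and Cul3, which encodes the ubiquitin ligase scaffold that works with KEAP1, rose (0.53, adjusted p = 0.00967). Of the 47 genes, 6 were then higher and 7 lower, where 12.4% of all genes rose and 12.1% fell. Fth1 was 2.01-fold higher (adjusted p = 0.00244) and Gsr 2.63-fold (adjusted p = 0.00105). The fifth gene that rose was Nfe2l1, a relative of Nfe2l2 (0.63, adjusted p = 0.00972). Of the thioredoxin and peroxiredoxin list 3 of 10 fell and 0 rose, namely Prdx2 (-0.71) and the genes of the mitochondrial proteins Txn2 (-0.53) and Prdx3 (-0.61). Ephx1, a microsomal epoxide hydrolase, and Slc40a1, the iron exporter ferroportin, fell too (-0.68 and -0.94).

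With miR-29a, 15 of 46 of these genes were called under LPS, 9 higher and 6 lower, where 12.6% of all genes rose and 13.7% fell. Gsr rose by 1.67 (adjusted p = 0.000141), Prdx1, an abundant cytosolic peroxiredoxin, by 1.14 (adjusted p = 0.000522) and Fth1 by 1.39 (adjusted p = 0.00121), while Ephx1 fell by 1.28 (adjusted p = 0.000143). With miR-146a, 6 of 47 were called, all higher, where 2.82% of all genes rose. They were led by Fth1 (1.46, adjusted p = 0.00558), Prdx5 (0.70, adjusted p = 0.012), Gsr (1.10, adjusted p = 0.0338) and Sqstm1, an autophagy receptor that binds KEAP1 (0.55, adjusted p = 0.0388). With miR-7a, 3 of 46 were called, which is near the 6.61% of all genes. Fth1 rose by 1.47 (adjusted p = 0.000934), while Idh1 (-0.88, adjusted p = 0.0129) and Prdx2 (-0.58, adjusted p = 0.0205) fell. Fth1 thus rose under LPS with each mimic and with scramble, although reads shared with its processed pseudogenes, which are known to be many, make its level uncertain.

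Between miR-7a and scramble under LPS 1 of 49 pathway genes was called, where 1.03% of all genes fell and 1.55% rose. This was Cat, the catalase that removes hydrogen peroxide, from 149 ± 12.2 to 64.0 ± 11.6 CPM (-1.23, adjusted p = 0.00254). Under vehicle Cat differed by a like amount with miR-7a, from 140 to 57.9 CPM on average (-1.25, adjusted p = 0.0608), and its interaction was -0.01 (adjusted p = 0.999). With the block 5 were called, 2 higher and 3 lower (4.22% and 4.56% of all genes), with Prdx4 (0.43) and Slc40a1 (0.59) higher and Blvrb (-0.54) and Tkt (-0.35) lower besides Cat. With miR-29a 4 of 47 were called, where 2.03% of all genes rose and 2.8% fell: Prdx1 (0.72, adjusted p = 0.0163) and Me1 (0.67, adjusted p = 0.0303) rose, and Ephx1 (-1.18, adjusted p = 0.00197) and the biliverdin reductase Blvra (-0.66, adjusted p = 0.0458) fell. With the block 6 were called, 3 higher and 3 lower (3.93% and 5.9% of all genes), Bach1 (0.35, adjusted p = 0.0336) and Tkt (-0.37, adjusted p = 0.0311) being added. With miR-146a 2 of 49 were called, where 2.4% of all genes were, Slc40a1 higher (1.05, adjusted p = 0.0189) and the exporter Abcc4 lower (-0.49, adjusted p = 0.0441). With the block 6 were called, 4 higher and 2 lower (4.79% and 5.83% of all genes), with Idh1 (0.40), Mgst1 (0.40) and Sqstm1 (0.38) added as higher and Taldo1 (-0.52) as lower.

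Under vehicle 0 of 46, 0 of 47 and 0 of 47 were called by limma with miR-7a, miR-29a and miR-146a, against 7, 9 and 11 at an unadjusted p under 0.05. There edgeR's quasi-likelihood test called 1, 0 and 0 and DESeq2 2, 0 and 4. Over all genes 1396 of 11090, 1204 of 11670 and 2959 of 11797 were under that p. Of all genes, 19, 0 and 268 were called by edgeR and 259, 85 and 1243 by DESeq2. In the interaction tests 0 were called by limma and by edgeR, against 1, 6 and 9 at an unadjusted p under 0.05, and DESeq2 called 1 for miR-29a. Over all genes 662, 807 and 1371 were under that p, and DESeq2 called 81, 23 and 20.

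Nfe2l2 itself, named here for its role after its values were seen, was not called in any of the 13 tests. Its group means ran from 163 ± 29.1 CPM in LPS_miR-7a to 269 ± 39 CPM in VEH_miR-146a. Under LPS with scramble it stood at 173 ± 30.1 against 216 ± 26.0 CPM (log2 difference -0.32, adjusted p = 0.198). Keap1 and Bach1 were not called in any of these tests either, apart from the blocked call of Bach1 given above.

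**Figure D5:**
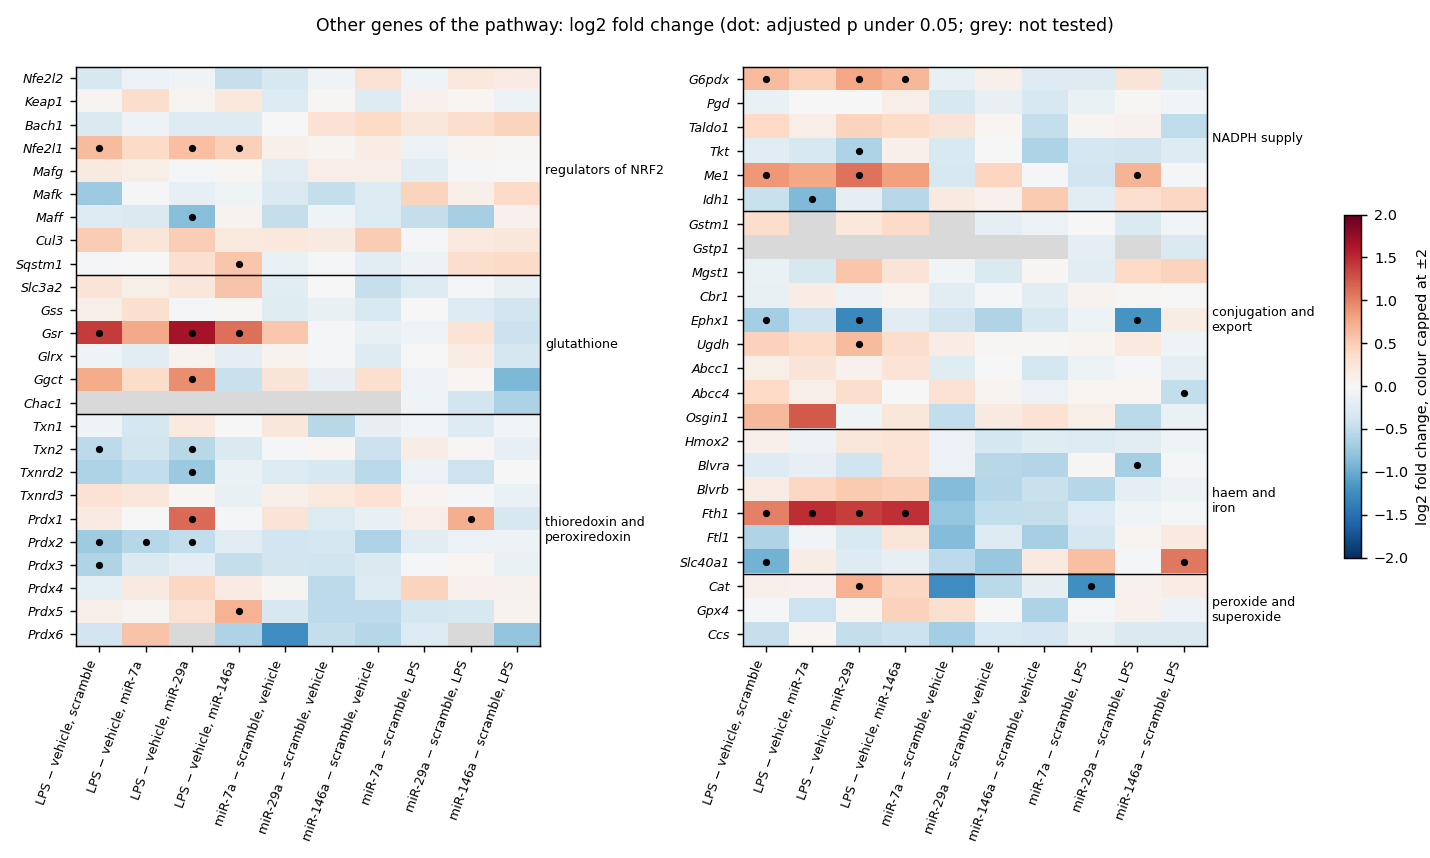
Log2 fold change of the 49 pathway genes tested in at least 1 comparison, by list (rows) and comparison (columns), with a dot where the adjusted p was under 0.05 and grey where the gene was not tested. Dots fill the row of Fth1 in the 4 LPS columns, and the 3 columns of mimic against scramble under vehicle hold none.

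The pattern of Hmox1 over the 8 group means of log2 CPM was most like those of Cox6a2, Tnfaip3 and Eif2ak1 among 8907 genes (Pearson's r of 0.96, 0.96 and 0.94). Tnfaip3, for example, averaged 58.2 CPM in VEH_scramble, 128 in LPS_scramble and 75.7 in LPS_miR-7a. For Slc7a11 the closest were Zfp53, Tmem184c and Orc3 (r of 0.99 each), and Tmem184c averaged 29.4 CPM in VEH_scramble, 43.2 in VEH_miR-146a and 47.3 in LPS_scramble. For Sod2 they were 4933434E20Rik, Cops3 and Taf1b (r of 0.95 each). These are the highest of many correlations over 8 points that share libraries, and they describe likeness alone.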

How the data were processed

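Total RNA of BV-2 cells was sequenced after ribosomal RNA depletion. Per the methods, the authors aligned and quantified reads on GRCm38 with the nf-core rnaseq workflow; the counting tool and its strand setting are not given in the sources used here. The authors deposited estimated counts per gene, from which the decimal marks were lost. A value such as 4280001 for Hmox1 in LPS_miR-7a replicate 3 stands for 4280. The mark was put back with a model of the size of each value, its last digits and the level of the gene in the other libraries, which gave lost decimals to 28.4% of 590874 values above 0. Values with a posterior under 0.9 (1.21%) were uncertain, and a gene with such a value in a library was not tested in comparisons that use the library. All 31 fractional values of Gclm and of Sod1 passed this limit (lowest posterior 0.99 and 0.975). In Hmox1, 3 values were restored, in Slc7a11 4, in Gpx1 5, in Gclc 1 and in Txnrd1, Srxn1, Sod2 and Nqo1 0.

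Estimated counts were rounded. Each comparison was fitted over the whole table with filterByExpr and TMM of edgeR 4.0.16, then voom and eBayes of limma 3.58.1 (R 4.3.3), on the 8 libraries of the 2 groups (16 for an interaction). The methods name the filter, TMM and a limma/edgeR model fitted to 2 conditions at a time, while voom and the interaction were chosen here. p-values were adjusted by Benjamini-Hochberg over all genes tested and called under 0.05, and intervals are 95%. CPM used TMM-scaled library sizes over all 32 libraries. Alternatives were edgeR's quasi-likelihood test, DESeq2 1.42.0, no filter, a replicate block, 1 fit over 8 groups, a minimum posterior of 0.99, TMM without structural RNA genes, values as deposited and each library left out. The replicate numbers were taken to pair libraries where all 4 same-numbered pairs correlated above 0.1 in their deviations from the group means. This held for LPS with scramble and with miR-29a, for miR-29a under vehicle and for all mimics under LPS. Restoration and fits were also run on simulated data, and the outcome is not given here. No library pair held identical values (0 pairs). The exon length is the union of exons of protein-coding transcripts in GENCODE M21.

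The members and lists were chosen with earlier results of these data known. All 10 members were looked up in each comparison, but some passages name only part of them, picked after their values were seen. Of the pathway lists at most 4 called genes per comparison are named by smallest adjusted p (others are named where a count or role calls for it, after their values were seen). For Hmox1, Slc7a11 and Sod2 the 3 genes with the most similar group means are named, of at least 10 CPM on average with no uncertain value (log2 of CPM + 0.5).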

Additional observations from a re-analysis of the deposited data

Results flagged for a closer look

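Among 72 tests of the levels of single members within a group of 4 libraries, 3 libraries stood apart from the other 3 of their group by Dixon's test, where chance gives about 1 in 20, or 3.6. Srxn1 was low in VEH_miR-7a replicate 4, the shallowest library, at 38.7 CPM against 53.0 to 53.9 CPM in the others. Slc7a11 was high in VEH_miR-29a replicate 4 at 23.1 CPM, against 20 to 20.4 CPM. Gpx1 was low in VEH_scramble replicate 1 at 94.3 CPM, against 128 to 135 CPM, and without this library it fell under LPS with scramble (log2 fold change -0.57, adjusted p = 0.0113).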

How the results depend on the processing

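Each library left out in turn, the number of members called ranged from 2 to 5 for LPS with scramble (2 without VEH_scramble replicate 4), from 0 to 1 with miR-7a, from 1 to 3 with miR-146a (3 without LPS_miR-146a replicate 2), from 0 to 2 for miR-146a against scramble under vehicle, from 1 to 2 for miR-7a against scramble under LPS, and from 0 to 1 for the miR-146a interaction. DESeq2 called 1 member for LPS with miR-7a, 4 with miR-146a, 2 for miR-146a under vehicle, 2 for miR-29a under LPS, and 1 each for the miR-29a and miR-146a interactions. Over all genes it called 1283, 810, 1243, 1031, 23 and 20 in these comparisons, in the same order. For LPS with scramble the number of members was 6 with DESeq2 (2678 of all genes) and with the fit over all 8 groups. Both add Gpx1 (adjusted p = 0.0282 and 0.0343). With no filter it was 4, which loses Sod2 (adjusted p = 0.0586). The fit over all 8 groups called 1, 4, 2 and 2 in the first 4 comparisons named for DESeq2 and 1 for miR-7a under LPS. With no filter on low counts 2 were called for LPS with miR-7a and 2 for miR-146a under vehicle, with a minimum posterior of 0.99 there were 3 for LPS with miR-146a and 2 for miR-146a under vehicle, and with edgeR's quasi-likelihood test 2 for the latter. Over all genes edgeR called 268 for miR-146a under vehicle. The alternatives called at most 7936 genes for LPS with miR-7a, 884 with miR-146a and 1535 for miR-146a under vehicle. As reported these counts were 784, 529 and 231. With the replicate block 1 member was called for LPS with miR-7a (Gclc), 4 for miR-7a under LPS, 5 for miR-29a under LPS, 2 for miR-146a under LPS and 1 for the miR-29a interaction (Txnrd1, 0.79). Over all genes the block gave 1712, 1142, 1299, 1342 and 16 calls, in the same order. In LPS with miR-7a and in the interaction the libraries share a number without all pairs correlating above 0.1.

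On values as deposited, with the decimal marks missing, 0 members were called in every comparison, and 3 called genes changed sign: Hmox1 for LPS with scramble (-1.26) and for miR-7a under LPS (1.33), and Gpx1 for miR-146a under vehicle (1.16). Single values without their decimal mark, 1 in each Hmox1 comparison and 1 in that of Gpx1, set these signs. TMM without structural RNA genes changed no call in 117 values, and in no other alternative did a called gene change sign. The cause of the other changes was not tested.

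The number of genes called over the whole table moved with the settings too, leaving aside values as deposited. Over the other alternatives and left-out libraries it ran from 1086 to 3017 for LPS with scramble (2159 as reported), 412 to 7936 with miR-7a (784), 2165 to 4527 with miR-29a (3200) and 250 to 884 with miR-146a (529). For the mimics under vehicle it ran from 0 to 340 (6), 0 to 85 (1) and 0 to 1535 (231) in the order miR-7a, miR-29a and miR-146a. Under LPS it ran from 59 to 1142 (335), 168 to 1299 (639) and 19 to 1342 (303), and for the interactions from 1 to 145 (2), 0 to 23 (2) and 0 to 69 (0). The lowest counts under LPS for miR-7a and miR-29a came without LPS_scramble replicate 4 and for miR-146a without LPS_miR-146a replicate 3. With the block the pathway genes called went from 10 to 13 for LPS with scramble and from 15 to 18 with miR-29a, where Ggct alone was lost (adjusted p = 0.0955). Over all genes the block likewise took the calls from 2159 to 3017 of 12302 and from 3200 to 4527 of 12193. A level of 3 counts stood at 2.65 CPM in VEH_miR-7a replicate 4 and at 0.148 CPM in LPS_scramble replicate 4, and levels below this could not be resolved.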
